A study of Mus musculus with 7 samples.

Results

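The 8 growth factor genes described here were measured in macrophages sorted from mouse brain tumours. They are the vascular endothelial growth factors Vegfa and Vegfb, the platelet-derived growth factors Pdgfa, Pdgfb and Pdgfc, and the ligands of the epidermal growth factor family Hbegf, Areg and Ereg. They were taken by symbol from the deposited table, where 8 of 8 were found among 25571 rows, and 7 of the 8 passed the low-count filter that left 15822 genes for testing. The cells were CD11b+ tumour-associated macrophages isolated by flow cytometry from orthotopic xenografts of T387 glioblastoma (GBM) in the brains of NSG mice, which lack T, B and NK cells. In the first group, 4 samples came from mice given Pracinostat, a drug that inhibits histone deacetylases. It was dosed orally (30 mg/kg) on 4 occasions per week over 3 weeks, starting on day 7 of tumour growth. In the second, 3 samples came from mice on the DMSO vehicle, which is the same solvent of DMSO, PEG300, Tween-80 and PBS with no drug. The labels call the samples biological replicates without naming the animals, so p-values measure the spread between these samples. The series title places the comparison in a study of histone deacetylase inhibitors as enhancers of macrophage phagocytosis.

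VEGF-A is the main ligand of the endothelial receptor VEGFR2 and drives vessel growth, and its gene is a classical target of hypoxia-inducible factors. VEGF-B binds VEGFR1, which VEGF-A also binds. PDGF chains pair into dimers that act on the receptors PDGFRA and PDGFRB of mural cells, fibroblasts and glial precursors. HB-EGF, amphiregulin and epiregulin are made as membrane-bound precursors, are released by the protease ADAM17 among others, and act on EGFR and its relatives. Macrophages of many tumours are known as a source of such ligands.

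Total counts per library ranged over 10142753 to 16950597, at 14299100 ± 2920070 with Pracinostat (SD, n = 4) and 13530500 ± 2039550 with DMSO (SD, n = 3; two-sided exact permutation p = 0.714). Genes detected numbered 18499 ± 609 with Pracinostat (SD, n = 4) and 16996 ± 937 with DMSO (SD, n = 3; exact permutation p = 0.0857, where 0.0286 is the smallest possible), and the part of this in the detection of Areg and Ereg was not tested. Itgam, the CD11b gene, and the macrophage genes Csf1r and C1qa were among the 12 microglia and macrophage markers, which together reached 12000 to 15910 CPM with Pracinostat and 10296 to 12809 CPM with DMSO. CPM are counts normalised to library size, which was adjusted by the trimmed mean of M-values (TMM). The libraries Pracinostat 1 and DMSO 2 stood apart by collagen transcripts. The collagen gene Col1a1 was at 439.9 CPM in Pracinostat 1 and 702 CPM in DMSO 2, while the other 5 libraries had 11.7 to 32.2 CPM. Col1a2 and Col3a1 were also highest in these libraries, but the other fibroblast markers listed did not single them out. Dcn was at 0.818 CPM in Pracinostat 1, 1.84 CPM in DMSO 2 and 1.49 CPM in DMSO 1. Col6a3 was at 238.8 CPM in Pracinostat 3, above DMSO 2 (232.2 CPM) and Pracinostat 1 (225.8 CPM). Monocyte markers summed to 87.2 CPM in Pracinostat 3, where the remaining Pracinostat libraries had 254.5 to 468.1 CPM and the DMSO libraries 321.4 to 726.7 CPM. Oligodendrocyte and precursor markers did not overlap between the groups, with sums of 445 to 1291 CPM with Pracinostat and 399.2 to 423.7 CPM with DMSO, and their part in the ligand levels was not tested.

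The stretches before the transcription starts of 4 of these genes are shown because Vegfa and Vegfb were the most abundant of the set per length, and Pdgfc and Areg among those that varied most between libraries. The RefSeq promoter table, of build GRCm38.p6, matched 5 of the 8 genes. The windows are the 250 bases before the start at chr17:46032378-46032627 (Vegfa, minus strand), chr19:6987652-6987901 (Vegfb, minus strand), chr3:81036166-81036415 (Pdgfc, plus strand) and chr5:91139349-91139598 (Areg, plus strand), each read 5′ to 3′ on the strand of its gene, with capitals for every match to a searched motif on either strand.
Vegfa: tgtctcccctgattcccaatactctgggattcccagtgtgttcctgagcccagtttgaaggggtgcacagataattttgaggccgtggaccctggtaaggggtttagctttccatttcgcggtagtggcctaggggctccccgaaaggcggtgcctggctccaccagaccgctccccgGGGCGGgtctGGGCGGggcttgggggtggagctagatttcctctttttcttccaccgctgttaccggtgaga
Vegfb: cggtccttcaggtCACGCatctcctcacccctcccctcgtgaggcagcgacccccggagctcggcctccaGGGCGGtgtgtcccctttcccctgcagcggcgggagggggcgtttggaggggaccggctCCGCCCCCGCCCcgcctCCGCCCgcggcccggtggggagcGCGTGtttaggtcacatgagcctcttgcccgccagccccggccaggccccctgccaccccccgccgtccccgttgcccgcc
Pdgfc: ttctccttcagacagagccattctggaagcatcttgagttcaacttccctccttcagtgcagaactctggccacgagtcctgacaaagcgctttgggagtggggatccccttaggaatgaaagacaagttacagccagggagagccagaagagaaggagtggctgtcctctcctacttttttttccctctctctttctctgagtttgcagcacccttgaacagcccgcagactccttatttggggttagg
Areg: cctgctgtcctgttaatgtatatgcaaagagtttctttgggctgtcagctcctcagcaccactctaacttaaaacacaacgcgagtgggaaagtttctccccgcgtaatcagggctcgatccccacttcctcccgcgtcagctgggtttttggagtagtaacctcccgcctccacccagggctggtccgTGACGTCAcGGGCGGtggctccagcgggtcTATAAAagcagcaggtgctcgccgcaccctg
The motifs searched were the hypoxia response element cores ACGTG and GCGTG, the GC box GGGCGG, the AP-1 motif TGANTCA, the NF-kappaB motif, the cyclic AMP response element TGACGTCA, the ETS motif CCGGAAGT and the TATA box TATAAA. The Vegfa window held 2 GC boxes and the Vegfb window held 4, with 2 GCGTG cores, and its GC content was 76.4% against 59.2% for Vegfa. A second RefSeq start of Vegfa, not shown, had 1 ACGTG core, 1 GCGTG core and 1 GC box in its window. That window, chr17:46025164-46025413 on the minus strand, lies downstream of the first start, so its matches are not in the sequence before that start. The Areg window held 1 cyclic AMP response element, 1 GC box and 1 TATA box, none of them overlapping. The Pdgfc window, with a GC content of 50.8%, held none of the 8 motifs. Of 32851 windows of the same length in the table, 32.7% held a GC box, 28.2% a GCGTG core and 16.6% an ACGTG core. A TATA box was in 12.4% and the cyclic AMP response element in 1.55%. A match of letters is a description of the sequence and says nothing on whether a factor was bound in these cells.

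None of these ligand genes passed the test between Pracinostat and DMSO. By edgeR's quasi-likelihood test 0 of 7 had a Benjamini-Hochberg adjusted p under 0.05, where the share over all 15822 genes was 0%, and DESeq2 and limma-voom also called 0. The adjusted p by edgeR was 0.9998 for each of the 7, and 1 of them, Pdgfb, had an unadjusted p under 0.05, as had 4.18% of all genes. Of the 7 log2 fold changes (Pracinostat minus DMSO), 5 were positive, with a median of 0.24, beside 52.3% positive and a median of 0.02 over all genes tested. The Pracinostat and DMSO libraries overlapped for 7 of 7, so that 0 were separated, against 6.1% of all genes. For 6 of the 7 the log2 fold change was smaller than the SD of log2 CPM within groups, Pdgfb being the exception.

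**Figure D1:**
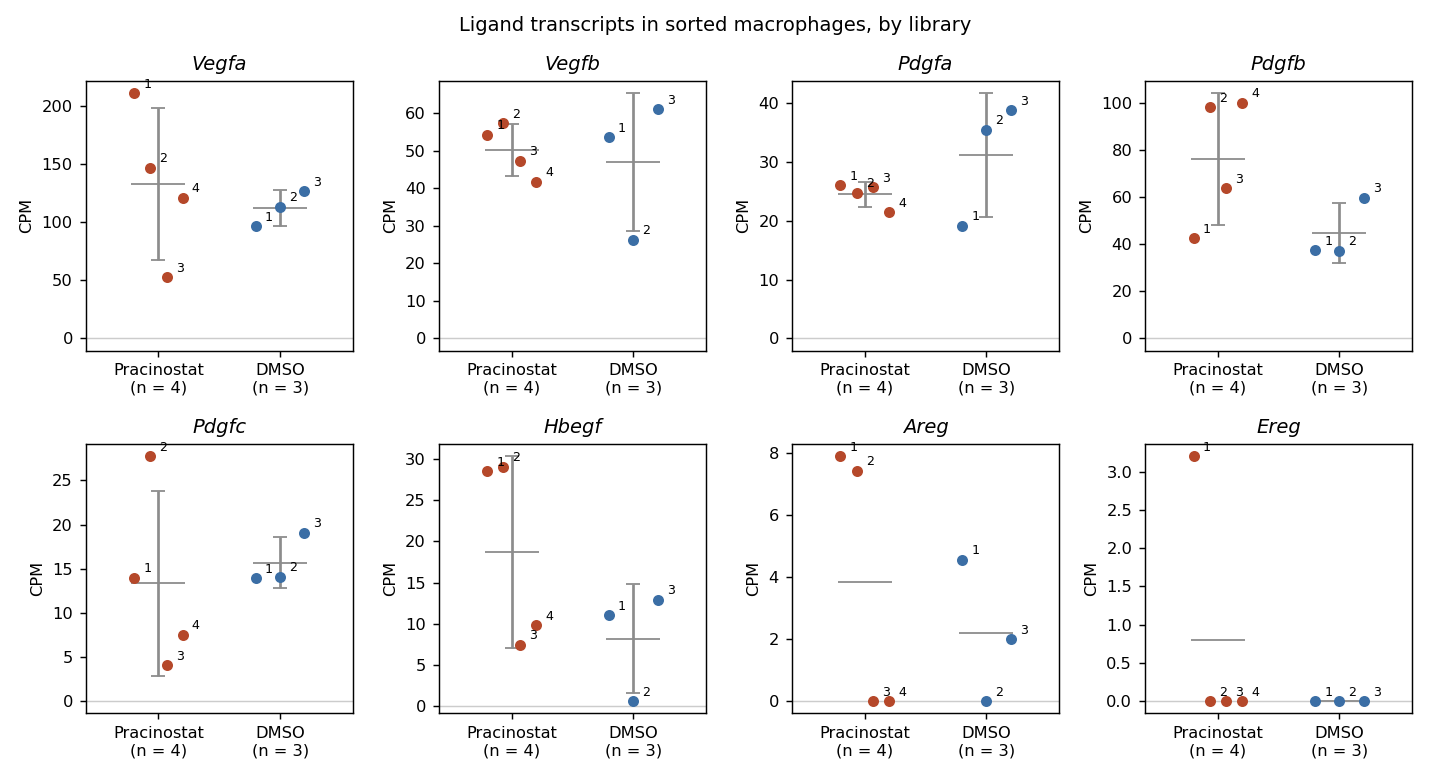
Level in CPM (vertical axis) of each of the 8 ligand genes in the 4 Pracinostat and 3 DMSO libraries. Points carry the replicate number, the wide bar is the mean and the whiskers are 1 SD, which is left out for Areg and Ereg because they include zeros. Vegfa runs from 52.8 to 210.6 CPM within the Pracinostat group, which spans the DMSO libraries on both sides.

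Vegfa was at 210.6, 146.7, 52.8 and 120.8 CPM in Pracinostat libraries 1 to 4 and at 96.5, 113.2 and 126.5 CPM in DMSO libraries 1 to 3. Both the highest and the lowest of the 7 values were Pracinostat libraries, and the 3 DMSO values lay between them. The mean was 132.7 ± 65.3 CPM with Pracinostat (SD, n = 4) and 112.1 ± 15.1 CPM with DMSO (SD, n = 3). The log2 fold change was 0.24 ± 0.39 (SE), with a 95% interval of -0.65 to 1.14. The interval covers fold changes between 0.636 and 2.21. The direction rested on Pracinostat 1, without which the log2 fold change was -0.063. In bulk RNA, fewer cells of a type and less RNA per cell cannot be told apart, which holds for every level given here. Pracinostat 3, with the lowest Vegfa, was the library with the lowest monocyte marker sum and the highest microglia and macrophage marker sum (15910 CPM, against 12000 to 12474 CPM in the other Pracinostat libraries), and the part of these cells in the Vegfa level was not tested.

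Vegfb was steadier among the treated samples, at 54.3, 57.3, 47.3 and 41.8 CPM in Pracinostat libraries 1 to 4. In DMSO libraries 1 to 3 it was at 53.5, 26.3 and 61.1 CPM, so the controls held both the lowest and the highest value. The log2 fold change was 0.09 ± 0.27 (SE), with a 95% interval of -0.48 to 0.67. DMSO 2 alone set the sign, since without it the log2 fold change was -0.19. DMSO 2 was also 1 of the 2 libraries with high Col1a1, and the part of the cells with collagen transcripts in its low Vegfb was not tested.

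Of the PDGF chains, Pdgfb had the smallest unadjusted p. This gene encodes the B chain, which endothelial cells use to recruit pericytes and which macrophages also make. It was at 42.5, 98.2, 63.7 and 100.1 CPM in Pracinostat libraries 1 to 4 and at 37.3, 37.3 and 59.7 CPM in DMSO libraries 1 to 3. Of the treated libraries, 3 lay above all controls, and Pracinostat 1 lay below DMSO 3. The mean was 76.1 ± 28 CPM with Pracinostat (SD, n = 4) and 44.8 ± 12.9 CPM with DMSO (SD, n = 3), a log2 fold change of 0.76 ± 0.30 (SE) with a 95% interval of 0.12 to 1.41. The unadjusted edgeR p of 0.0234 became an adjusted p of 0.9998 over all genes. The log2 fold change stayed positive in each of the 7 fits that left out 1 library, from 0.59 without Pracinostat 4 to 1.03 without DMSO 3. The 10 endothelial markers summed to 337.1, 469.5, 288.5 and 97.6 CPM in Pracinostat libraries 1 to 4 and to 408.7, 404.7 and 319.4 CPM in DMSO libraries 1 to 3. The highest and the lowest of these sums were thus in Pracinostat 2 and Pracinostat 4, the libraries with the most Pdgfb. Flt1, a listed marker that macrophages also express, was 194.2 CPM of the sum in Pracinostat 2, and 101.7 and 109.9 CPM in DMSO 1 and 2. Without Flt1 the sum of Pracinostat 2 was not the highest. The part of endothelial cells in the Pdgfb level was not tested.

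Pdgfa, the A chain and a mitogen of oligodendrocyte precursors, was at 26, 24.7, 25.7 and 21.4 CPM in Pracinostat libraries 1 to 4. In DMSO libraries 1 to 3 it was at 19.1, 35.4 and 38.7 CPM. The treated libraries lay within a narrow band between DMSO 1 and DMSO 2. The log2 fold change was -0.35 ± 0.28 (SE), with a 95% interval of -0.95 to 0.25, and it ranged from -0.60 to -0.16 when 1 library was left out.

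Pdgfc encodes a chain with an extra CUB domain that proteases such as tissue plasminogen activator remove before it can signal. It was at 14, 27.8, 4.1 and 7.54 CPM in Pracinostat libraries 1 to 4 and at 13.9, 14.1 and 19.1 CPM in DMSO libraries 1 to 3. The treated libraries again spread to both sides of the controls, with Pracinostat 2 highest and Pracinostat 3 lowest. The log2 fold change was -0.23 ± 0.52 (SE), with a 95% interval of -1.36 to 0.89. It was 0.070 without Pracinostat 3 and -0.88 without Pracinostat 2.

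The EGF-family ligands were split among the libraries of each group. Hbegf, which encodes heparin-binding EGF-like growth factor, was at 28.5, 29, 7.47 and 9.86 CPM in Pracinostat libraries 1 to 4 and at 11.1, 0.64 and 12.9 CPM in DMSO libraries 1 to 3. Pracinostat 1 and 2 lay above all controls and Pracinostat 3 and 4 below 2 of the 3 controls, while DMSO 2 held 8 counts. The log2 fold change was 1.18 ± 0.91 (SE), with a 95% interval of -0.93 to 3.30. Without DMSO 2 it was 0.64, and without both libraries rich in Col1a1 it was 0.37.

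Areg, which encodes amphiregulin, was at 7.91, 7.43, 0 and 0 CPM in Pracinostat libraries 1 to 4 and at 4.56, 0 and 2 CPM in DMSO libraries 1 to 3. These were 116, 122, 0 and 0 counts with Pracinostat and 58, 0 and 31 counts with DMSO. The gene was thus detected in 4 of the 7 libraries, 2 of each group. A count of 0 allows up to 0.198 CPM in Pracinostat 3, 0.29 CPM in Pracinostat 4 and 0.24 CPM in DMSO 2, taking 3 counts as the limit and covering counting error only. The exact 95% interval of the lowest detected library, DMSO 3, was 1.36 to 2.83 CPM. The fitted log2 fold change of 0.81 ± 1.95 (SE; 95% interval -3.65 to 5.27) differed between tools, and limma-voom gave -0.22. It was 0.20 without Pracinostat 1 and 1.92 without DMSO 1.

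Ereg, which encodes epiregulin, was not tested because it was detected in too few libraries to pass the low-count filter. It had 47 counts in Pracinostat 1, or 3.2 CPM with an exact 95% interval of 2.35 to 4.26 CPM. The other 6 libraries had 0 counts, which allows up to 0.183 to 0.29 CPM. Pracinostat 1 was also the library with the most Areg, but hardly above Pracinostat 2 (7.91 against 7.43 CPM). Ereg was thus detected in 1 of the 4 libraries where Areg was.

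**Figure D2:**
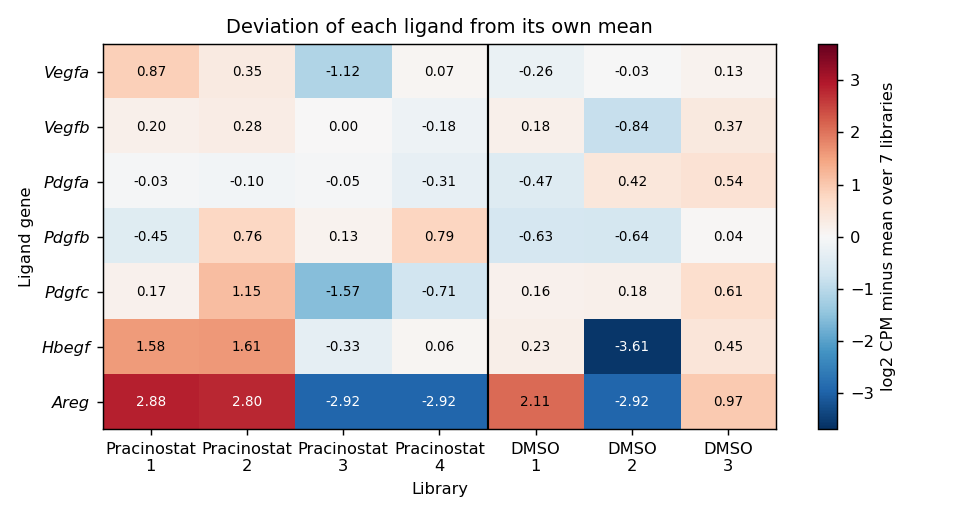
Deviation of log2 CPM (prior count 2) of the 7 tested ligand genes (rows) from their own mean over the 7 libraries (columns, Pracinostat left of the line and DMSO right of it), as colour and number. Areg and Hbegf carry the strongest colours, with Areg at 2.88 in Pracinostat 1 and -2.92 in Pracinostat 3, and Pdgfa and Vegfb the weakest.

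The spread within groups differed widely among the ligands. The pooled SD of log2 CPM within groups was 3.07 for Areg, 1.64 for Hbegf, 0.92 for Pdgfc, 0.67 for Vegfa, 0.52 for Pdgfb, 0.44 for Vegfb and 0.36 for Pdgfa. DMSO 2 held the lowest value of Vegfb and Hbegf and shared the zero of Areg with Pracinostat 3 and 4. It was also lowest in Pdgfb, but hardly below DMSO 1 (37.28 against 37.34 CPM). Pracinostat 3 held the lowest value of Vegfa and Pdgfc and shared the zero of Areg. Pracinostat 1 held the highest Vegfa and Areg, and Pracinostat 2 the highest Pdgfc and Hbegf. For Areg, Pracinostat 1 was hardly above Pracinostat 2 (7.91 against 7.43 CPM).

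Neutrophils and monocytes also can make Areg, Ereg and Hbegf. The 8 monocyte markers summed to 468.1, 254.5, 87.2 and 319.1 CPM in Pracinostat libraries 1 to 4 and to 726.7, 466.8 and 321.4 CPM in DMSO libraries 1 to 3. They were lowest in Pracinostat 3, which had no Areg counts. DMSO 2, also without Areg counts, was near Pracinostat 1, where Areg was at 7.91 CPM. S100a9, a neutrophil gene, was at 49.4, 38, 0 and 22.5 CPM in Pracinostat libraries 1 to 4 and at 45.8, 8.88 and 0.515 CPM in DMSO libraries 1 to 3. S100a9 was thus high in the 3 libraries with the most Areg, but Areg was detected in DMSO 3, with S100a9 near 0, and not in Pracinostat 4. The 10 neutrophil markers summed to 366.4 to 602.4 CPM with Pracinostat and 279.4 to 582.2 CPM with DMSO, most of it Csf3r (319.7 to 411.2 CPM with Pracinostat and 271.2 to 358.6 CPM with DMSO), which microglia also express. Of the 10 mast cell and basophil genes listed, only Gata2, Hdc and Kit were in the table, and Cpa3, Ms4a2 and Mcpt4, the first 3 of the list, were not. Gata2, Hdc and Kit summed to 14 to 73.7 CPM with Pracinostat and 16.8 to 60.5 CPM with DMSO. The part of these cells in the levels of the EGF-family ligands was not tested.

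Between genes, levels were compared as CPM per kilobase of merged exons (GENCODE M21 lengths, of build GRCm38). Vegfb stood at 31.3 ± 4.35 with Pracinostat (SD, n = 4) and 29.3 ± 11.4 with DMSO (SD, n = 3), and Vegfa at 31 ± 15.2 CPM per kilobase with Pracinostat and 26.2 ± 3.51 with DMSO. These 2 were not ordered, with Vegfb above Vegfa in 4 of 7 libraries. Pdgfb followed at 18.3 ± 6.72 CPM per kilobase with Pracinostat and 10.8 ± 3.11 with DMSO, below Vegfa in 6 of 7 libraries and above Pdgfa in 6 of 7. Pdgfa was at 7.83 ± 0.676 CPM per kilobase with Pracinostat and 9.97 ± 3.37 with DMSO, and was above Hbegf in 7 of 7 libraries. Hbegf, Areg and Pdgfc had means of 3.87, 3.16 and 2.62 CPM per kilobase with Pracinostat and 1.7, 1.8 and 3.08 with DMSO. The order of these 3 was not fixed, with Hbegf above Areg in 4 of 7 libraries and Areg above Pdgfc in 3 of 7. Ereg was lowest.

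The other ligands of the families showed no called change. Of 13 symbols listed, 11 were in the table and 7 were tested, of which 0 were called higher and 0 lower and 4 had positive log2 fold changes. Tgfa, transforming growth factor alpha and another EGFR ligand, was at 53, 56.6, 77.5 and 47.6 CPM in Pracinostat libraries 1 to 4 and at 62.7, 43.8 and 41.4 CPM in DMSO libraries 1 to 3. Its groups overlapped, and the log2 fold change was 0.25 ± 0.23 (SE; 95% interval -0.24 to 0.75). Per length, Tgfa stood at 9.04 ± 2.02 CPM per kilobase with Pracinostat and 7.59 ± 1.79 with DMSO, close to Pdgfa. The placental growth factor gene Pgf averaged 3.53 CPM with Pracinostat and 3.1 CPM with DMSO (log2 fold change 0.19 ± 1.18 SE), with 11.9 CPM in Pracinostat 3. Egf, Pdgfd, Nrg1, Nrg2 and Nrg4 averaged 0.428 to 3.3 CPM with Pracinostat and 0.419 to 2.81 CPM with DMSO. At those levels the intervals were wide, for example -1.22 to 4.25 for Nrg1, a neuregulin (log2 fold change 1.51 ± 1.28 SE).

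Of the receptors, the neuropilins Nrp1 and Nrp2, co-receptors of VEGF-A and semaphorins, had the narrowest intervals. Nrp2 averaged 454.3 ± 15.2 CPM with Pracinostat (SD, n = 4) and 474.2 ± 46.2 CPM with DMSO (SD, n = 3), a log2 fold change of -0.06 ± 0.14 (SE) with a 95% interval of -0.36 to 0.24. Nrp1 averaged 262.1 ± 23.1 CPM with Pracinostat and 302.7 ± 48.9 CPM with DMSO (log2 fold change -0.21 ± 0.16 SE, 95% interval -0.54 to 0.13). For both neuropilins the intervals lie within a doubling or a halving, which is not so for any member of the ligand set other than Vegfb and Pdgfa. Flt1, which encodes VEGFR1 and which macrophages and endothelial cells express, was at 147.9, 194.2, 72.4 and 18.7 CPM in Pracinostat libraries 1 to 4 and at 101.7, 109.9 and 89.1 CPM in DMSO libraries 1 to 3. As with Vegfa, the treated libraries lay on both sides of the controls, and the log2 fold change was 0.11 ± 0.73 (SE). Kdr, which encodes VEGFR2, averaged 54.4 CPM with Pracinostat and 62.7 CPM with DMSO (log2 fold change -0.20 ± 0.22 SE), and Flt4, which encodes VEGFR3, 9.64 CPM with Pracinostat and 6.42 CPM with DMSO (0.59 ± 0.71 SE).

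Receptors for the PDGF and EGF families were low. Pdgfrb, a mural cell receptor, averaged 13.4 CPM with Pracinostat and 15.8 CPM with DMSO (log2 fold change -0.23 ± 0.52 SE), with 30.1 CPM in Pracinostat 1. Its log2 fold change was -1.004 without Pracinostat 1 and -0.018 without DMSO 2. Pdgfra averaged 2.08 CPM with Pracinostat and 4.04 CPM with DMSO (-0.96 ± 1.12 SE), and Pdgfrl, a related gene without a kinase domain, 1.18 CPM with Pracinostat and 0.605 CPM with DMSO (0.95 ± 1.69 SE). Egfr was at 0.136 to 3.1 CPM with Pracinostat and at 0 to 2.96 CPM with DMSO. Erbb2, Erbb3 and Erbb4 averaged 0.668, 4.19 and 0.768 CPM with Pracinostat and 1.4, 4.8 and 1.81 CPM with DMSO. All 4 ERBB receptor genes had negative log2 fold changes in the fit of all 7 libraries, from -1.21 to -0.20, but Egfr, Erbb3 and Erbb4 changed sign under other settings, and 0 of the 4 had an unadjusted edgeR p under 0.05.

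**Figure D3:**
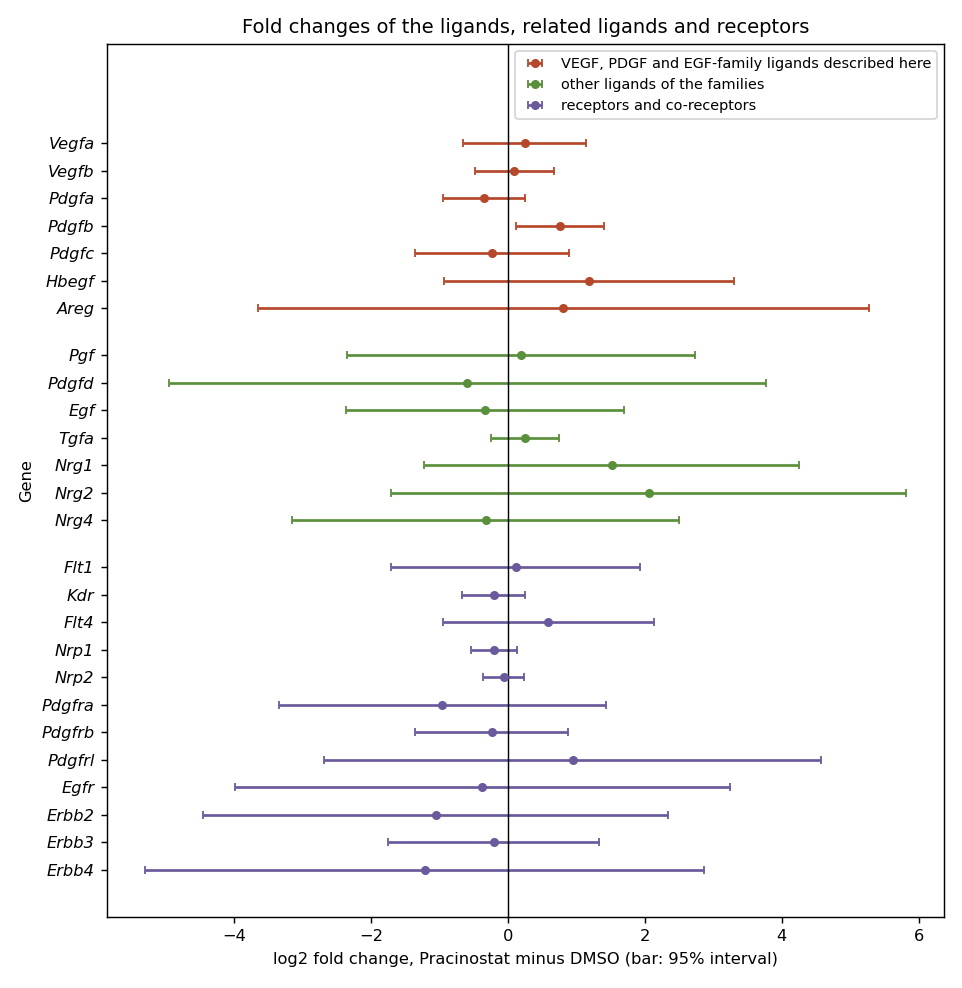
Log2 fold change, Pracinostat minus DMSO (horizontal axis), of the 7 tested ligand genes, 7 other ligands of the same families and 12 receptor or co-receptor genes, with 95% intervals from edgeR. Pdgfb, at 0.76, is the 1 gene of the plot whose unadjusted interval (0.12 to 1.41) leaves out 0.

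Of 12 genes listed for the release or activation of these ligands, 11 were tested, 0 were called, 7 had positive and 4 negative log2 fold changes, and the median was 0.069. Adam17, the main sheddase of HB-EGF, amphiregulin and TGF-alpha, was at 198.1, 187.8, 190 and 184.7 CPM in Pracinostat libraries 1 to 4 and at 165.3, 169.4 and 152.2 CPM in DMSO libraries 1 to 3. The 4 treated libraries lay above the 3 controls, as in 3.51% of all genes, and the log2 fold change was 0.23 ± 0.14 (SE; 95% interval -0.077 to 0.53; adjusted edgeR p of 0.9998). Adam15 (log2 fold change 0.24 ± 0.17 SE) and Adam8 (-0.35 ± 0.29 SE) had the next smallest p in the list.

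Among 17 tested genes for other angiogenic and growth factors 0 were called, 6 had positive and 11 negative log2 fold changes, with a median of -0.07. Those with the smallest p were Sema4d, which encodes a semaphorin (log2 fold change 0.24 ± 0.15 SE), Angptl4, an inhibitor of lipoprotein lipase (-0.54 ± 0.37 SE), and Angptl2 (0.54 ± 0.40 SE).

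Hypoxia-inducible factors and their targets, among which Vegfa is usually counted, had 0 of 19 genes called, 5 with positive and 14 with negative log2 fold changes, and a median of -0.13. Ndrg1, a hypoxia and stress response gene, was at 182.1, 113.8, 103.4 and 171.2 CPM in Pracinostat libraries 1 to 4 and at 230.8, 201.6 and 298.2 CPM in DMSO libraries 1 to 3. The treated libraries lay below all controls, as in 2.59% of all genes, and the log2 fold change was -0.77 ± 0.21 (SE). Its unadjusted edgeR p of 0.00287 became an adjusted p of 0.996. Slc2a1, the glucose transporter GLUT1, was at -0.40 ± 0.21 (SE) and P4ha1, a collagen prolyl hydroxylase subunit, at 0.30 ± 0.16 (SE). Vegfa, at 0.24, lay on the positive side with 5 of these 19 genes.

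Genes that respond to ERK signalling, the pathway downstream of EGF and PDGF receptors, had 0 of 18 called, 9 positive and 9 negative log2 fold changes and a median of 0.02. Of these 18, 3 had an unadjusted edgeR p under 0.05, beside 4.18% of all genes. Egr1, an immediate-early transcription factor, was at 2863, 3769, 2911 and 3025 CPM in Pracinostat libraries 1 to 4 and at 1902, 1889 and 2839 CPM in DMSO libraries 1 to 3 (log2 fold change 0.51 ± 0.18 SE). Its 4 treated libraries lay above the 3 controls, as in 3.51% of all genes, but Pracinostat 1 and DMSO 3 lay close together. The unadjusted edgeR p of 0.0116 became an adjusted p of 0.9998. Phlda1 had a log2 fold change of 1.12 ± 0.36 (SE) and the ETS factor gene Etv5 one of 0.38 ± 0.18 (SE), with unadjusted edgeR p of 0.0125 for Phlda1 and 0.0481 for Etv5 and an adjusted p of 0.9998 for both. Genes that cells induce during dissociation, Egr1 among them, summed to 12835 to 18504 CPM over 15 genes with Pracinostat and 12124 to 15157 CPM with DMSO, and their part in the Egr1 level was not tested.

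**Figure D4:**
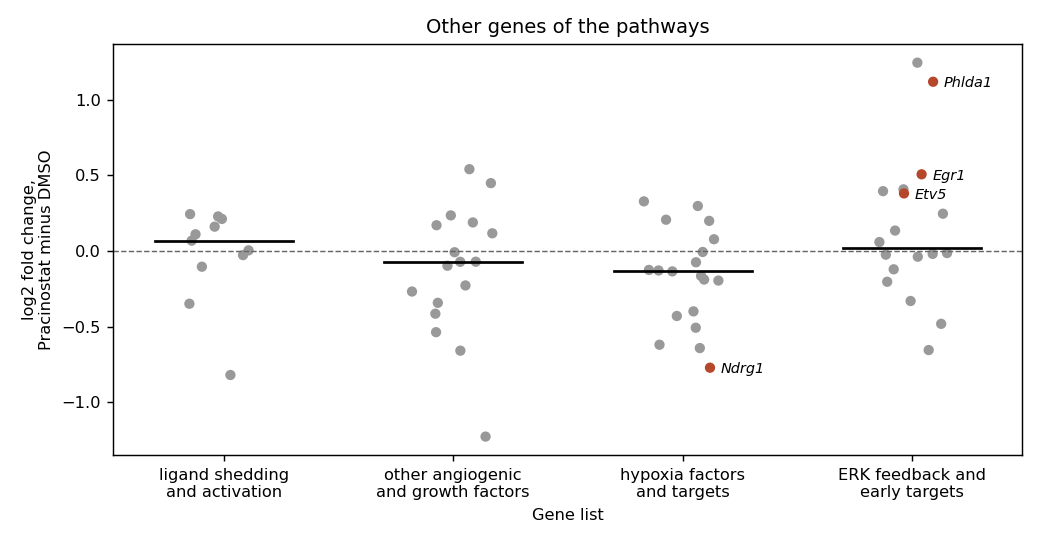
Log2 fold change, Pracinostat minus DMSO (vertical axis), of each tested gene in 4 lists (horizontal axis), with the median as a black bar. Coloured and named points have an unadjusted edgeR p under 0.05, and these are 1 hypoxia gene (Ndrg1, -0.77) and 3 ERK-responsive genes.

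For each tested ligand, the genes whose deviations over the 7 libraries lay closest were found among 10620 or 10621 tested genes whose mean log2 CPM reached 2. The measure was the root-mean-square difference of centred log2 CPM. Vegfa, whose own deviations had a root mean square of 0.56, was nearest to Plxnc1, a semaphorin receptor gene (difference 0.13), then Emd (0.15) and Antxr2 (0.16). Pdgfb (own 0.56) was nearest to Src, a tyrosine kinase gene (0.18), and Pdgfc (own 0.82) to Gja1, the connexin 43 gene and 1 of the astrocyte markers listed (0.14). Vegfb (own 0.38) was nearest to Atp6v1f, a vacuolar ATPase subunit gene (0.063), and Pdgfa (own 0.34) to Vrk2 (0.12). Hbegf (own 1.63) and Areg (own 2.60) had looser neighbours, Utp23 at 0.39 and Lyz1, a lysozyme gene, at 1.46. With 7 libraries and so many genes, near neighbours are found for most patterns, so these are a description of the libraries.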

How the data were processed

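RNA of sorted CD11b+ cells was sequenced in 4 Pracinostat and 3 DMSO samples from 1 ng of total RNA with a stranded kit, as 150-base pairs over 2 lanes, per the labels' protocols. The labels give 30 mg/kg as the oral dose and 3 mg/kg where they describe the drug solution, and the first was taken as the dose. Per the submitters' processing notes the build was GRCm39 and the tools included STAR, RSEM and DESeq2, without versions or roles. Not given in the sources used here were the annotation, the strand setting and any removal of human tumour reads. The authors deposited expected counts per gene symbol, stored as whole numbers and not normalized. In 3205 rows, with 1.21% of the counts, a gene ID stands in place of a symbol, and these rows were kept.

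Counts were tested with edgeR 4.0.16 in R 4.3.3 (TMM, filterByExpr at a minimum count of 10, robust quasi-likelihood fit, two-sided), adjusted over all 15822 genes at 0.05. The SE is the log2 fold change over the root of the test statistic, and 95% intervals use its t distribution. CPM use the TMM-scaled totals. The filter was passed by 7 of the 8 ligands, and a gene can pass it through 1 group alone. In 3 simulated runs with 200 changed genes each, over 15822 genes for Pracinostat against DMSO, the test called 29.1% of genes changed 2-fold, 66.8% at 4-fold, 78.4% at 8-fold and 0.0597% of unchanged genes. These changed genes had a mean log2 CPM of at least 2.

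The ligands and gene lists were chosen with earlier results of these data known. Named genes were all ligands and receptors tested, and up to 3 with the smallest p of each other list. Alternatives covered scaling, filter, DESeq2 1.42.0, limma-voom (limma 3.58.1), robust estimation, the replicate number as a block, and leaving out libraries. No 2 libraries agreed within sampling noise (lowest chi-square 30.04 per degree of freedom). Depth was compared over all 35 splits, with a smallest possible p of 0.0286.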

Additional observations from a re-analysis of the deposited data

Results flagged for a closer look

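In the Pracinostat group, 51 values (named genes and marker sums) were screened for a library far from the others, and 8 had a highest or lowest library whose gap to its neighbour exceeded Dixon's 95% limit of 0.829 of the range. Chance flags about 1 in 20 such groups where values are normally distributed and independent. The CPM of low genes need not be so, and Pdgfrb is itself part of the pericyte sum, so the number flagged cannot be set against that rate. The DMSO group of 3 was not screened. None of the 8 was among the 7 tested ligand genes. Ereg, which was not tested, was not screened. It was at 3.2 CPM in Pracinostat 1 and at 0 CPM in the other Pracinostat libraries. Pgf was at 11.9 CPM in Pracinostat 3, against 0.29 to 1.36 CPM in the other Pracinostat libraries. Pdgfrb was at 30.1 CPM in Pracinostat 1, against 6.58 to 8.71 CPM in the others. In the same library the pericyte and smooth muscle markers summed to 127.8 CPM (others 23.3 to 36.7 CPM) and the fibroblast markers to 925 CPM (others 157 to 258.3 CPM). Egfr was at 3.1 CPM in Pracinostat 2 (others 0.136 to 0.397 CPM), as was Erbb4 at 2.8 CPM (others 0 to 0.273 CPM). Erbb3 was at 9.67 CPM in Pracinostat 4 (others 2.05 to 2.86 CPM). The microglia and macrophage markers summed to 15910 CPM in Pracinostat 3 (others 12000 to 12474 CPM).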

How the results depend on the processing

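The ligand set had 0 called genes under each of the 17 other fits and at an adjusted p under 0.1. Over all genes the count of 0 became 63 without the low-count filter, 27 with DESeq2 and 4 with the replicate block, and 0 to 3 when 1 library was left out (3 without DMSO 3). Among the pathway lists the count of 0 became 2 without the filter, Ndrg1 (-0.77, adjusted p = 0.0123) and Phlda1 (1.12, adjusted p = 4.78e-05). The cause was not tested. The block used replicates 1 to 3 of each group. Deviations of same-numbered libraries correlated at 0.0445, -0.0352 and 0.0728, so the numbers were not taken as pairs. Under the block the log2 fold change of Pgf was -0.36 and that of Nrg4 0.69, both of the other sign, and Pdgfb was at 0.54.

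Pdgfa, Pdgfb and Hbegf kept their sign in all 17. With limma-voom the sign turned for Areg (-0.22), Pgf (-0.49), Nrg4 (1.36), Flt1 (-0.23), Pdgfrl (-0.073) and Egfr (0.10). Without both Col1a1-rich libraries, a choice made after seeing the data, it turned for Vegfa (-0.053), Vegfb (-0.22), Areg (-0.39), Erbb3 (0.083) and Erbb4 (1.38). When 1 library was left out the log2 fold change ran from -0.063 to 0.51 for Vegfa, -0.19 to 0.33 for Vegfb, -0.88 to 0.070 for Pdgfc, -2.06 to 1.24 for Pgf, -0.76 to 0.26 for Egf, -0.97 to 0.28 for Nrg4, -0.33 to 0.45 for Flt1, -0.13 to 0.012 for Nrp2, -0.95 to 1.17 for Egfr, -1.03 to 0.056 for Erbb3 and -1.79 to 1.10 for Erbb4. With no change of sign it ran from 0.20 to 1.92 for Areg, -1.004 to -0.018 for Pdgfrb and -1.43 to -0.16 for Erbb2. A count of 0 allows Areg and Ereg up to 0.29 CPM in any library without them, taking 3 counts as the limit and covering counting error only.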

Other observations

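Thbs1 and Igf1, from the list of other angiogenic and growth factors and chosen after their values were seen, had their lowest level in Pracinostat 3, as Vegfa and Pdgfc had. Thbs1, which encodes thrombospondin 1, an inhibitor of angiogenesis, was at 2376, 1251, 252.5 and 904 CPM in Pracinostat libraries 1 to 4 and at 1630, 1443 and 1477 CPM in DMSO libraries 1 to 3 (log2 fold change -0.34 ± 0.69 SE). Igf1, insulin-like growth factor 1, was at 128.8, 72.9, 18 and 66.6 CPM with Pracinostat and at 117, 87.8 and 134.3 CPM with DMSO (-0.66 ± 0.58 SE). Neither had an unadjusted edgeR p under 0.05. Spp1, the osteopontin gene, named after its values were seen as well, averaged 5089 ± 1544 CPM with Pracinostat (SD, n = 4) and 4521 ± 1295 CPM with DMSO (SD, n = 3).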
